A study of Homo sapiens with 24 samples.

Results

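The HOX cluster genes are the members of the HOXA, HOXB, HOXC and HOXD homeobox clusters. They were taken as every gene whose symbol is one of these cluster names followed by a number alone, with antisense genes left out, among the probe sets annotated with 1 symbol. This gave 28 genes on 44 probe sets, of 19775 genes on 41097 such probe sets. HOXB contributed 10 genes, HOXC 9, HOXD 8 and HOXA 1, which was HOXA2. The other 10 HOXA genes of the RefSeq gene table and HOXD3 were not analysed here, because the annotation used pairs no single-symbol probe set with them. Where a gene has several probe sets, the one with the highest mean of the 24 arrays stands for it.

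HOX genes encode homeodomain transcription factors that give cells along the head-to-tail axis their positional identity. Genes of the same number in different clusters are paralogs, and within a cluster the low-numbered genes are switched on earlier in development and further towards the head than the high-numbered ones. In pluripotent cells the clusters are known to be held silent by Polycomb complexes, and retinoic acid, WNT and FGF signals open them. Fibroblasts of the trunk and limbs are known to keep a HOX expression pattern that reflects the body site they were taken from.

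RNA of human embryonic stem cell lines was measured on 24 Affymetrix arrays, which fall into 8 groups of 3. In the first 4 groups each array is 1 of the lines H1, H9 and HSF1, grown with feeder cells (feeder-supported) or without them (feeder-free) and treated for 5 days with DMSO, the solvent, or with AZD3965 at 250 nM, which blocks MCT1, a carrier of lactate across the cell membrane. In the other 4 groups the arrays are 3 biological replicates of feeder-free H9 or HSF1 cells. They were kept in fresh (unconditioned) medium or in medium that mouse embryonic fibroblasts (MEFs) had conditioned. For the conditioned medium the duration is 5 days in the sample labels and 24 hours in the design text. No duration was recorded for the unconditioned samples, so that the time in both media may not be matched. The feeders are MEFs too, and whether they were removed before RNA was taken is not stated in the sources used. The labels name no genetic change and no other treatment for any of the 8 groups, and each of the first 4 groups holds 1 array of each line.

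The RefSeq promoter table (GRCh38.p14, 250 bases before to 50 after a gene's start) held windows for 11 of the 28 genes, 10 of them distinct, since HOXC4 and HOXC5 share 1 window. In the RefSeq gene table HOXC6 has the same start as these 2 genes. The shared HOXC4 and HOXC5 window and that of HOXD10 are shown because these genes rose with feeders in the results that follow. The first lies at chr12:54016638-54016937 on the plus strand and the second at chr2:176116528-176116827 on the plus strand, both 5′ to 3′ with each CpG, the dinucleotide that DNA methylation acts on, in capitals.
HOXC4 and HOXC5: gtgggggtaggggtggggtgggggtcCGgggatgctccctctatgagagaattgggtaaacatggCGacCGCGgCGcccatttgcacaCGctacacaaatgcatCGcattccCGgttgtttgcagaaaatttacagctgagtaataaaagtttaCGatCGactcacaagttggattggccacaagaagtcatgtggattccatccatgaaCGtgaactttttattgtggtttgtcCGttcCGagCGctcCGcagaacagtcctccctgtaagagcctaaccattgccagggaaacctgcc
HOXD10: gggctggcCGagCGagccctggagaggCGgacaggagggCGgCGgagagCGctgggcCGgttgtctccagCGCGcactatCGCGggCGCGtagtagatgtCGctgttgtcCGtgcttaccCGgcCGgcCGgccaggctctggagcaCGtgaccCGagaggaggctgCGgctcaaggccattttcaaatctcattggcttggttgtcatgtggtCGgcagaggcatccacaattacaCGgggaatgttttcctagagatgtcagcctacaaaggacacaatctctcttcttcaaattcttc
The HOXC4 and HOXC5 window holds 15 CpG at a GC content of 51.7%, and the HOXD10 window 23 CpG at 60.0%. Over all 34943 promoters of the table the medians were 14 CpG and 58.7%. Both strands were searched for the TATA box (TATAAA), the joint HOX and PBX site (TGATTNAT), the CDX site (TTTATG), the homeodomain core (TAATTA) and both forms of the DR5 direct repeat that retinoic acid receptors bind. None of these letters occurred in the printed windows. Among the 10 member windows TATAAA occurred in 1 (HOXD13), TGATTNAT in 2 (HOXA2 and HOXD11), TTTATG in 1 (HOXD8) and TAATTA in 1 (HOXD11). The same motifs occurred in 11.57%, 2.82%, 10.61% and 4.85% of all promoters, and each form of the direct repeat in 0.01% of them and in no member window.

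Values are log2 levels after RMA, with no detection call, and the array medians ran from 6.09 to 6.35. Whether a level near or below these medians lies above background is therefore not known. The pluripotency markers were high on every array, with NANOG at 11.82 to 12.49 with feeders and 11.60 to 12.46 without, and SOX2 at 11.62 to 12.27 and 12.48 to 12.99. POU5F1 has no single-symbol probe set in the annotation used. The mean of 31 fibroblast marker genes lay at 8.01 to 8.91 on the 6 feeder-supported arrays and at 7.15 to 8.08 on the 18 feeder-free arrays. Both feeder-supported HSF1 arrays stood apart, with correlations of 0.860 to 0.961 with the other 22 arrays, against 0.948 to 0.998 among those. The interquartile range was 2.45 on both, 2.66 to 2.85 on the remaining feeder-supported arrays and 3.06 to 3.30 on feeder-free ones.

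With DMSO, HOX genes were higher in feeder-supported than in feeder-free cells, and none was lower past the threshold. Most of the largest differences lay in the middle of the clusters, and the 7 largest were at HOXC6, HOXB6, HOXB8, HOXD10, HOXC4, HOXC8 and HOXB7, from 6.73 to 1.33 on the log2 scale. The raw difference was above 0 for 28 of 28 genes, with a median of 0.60 on the log2 scale, where 42.5% of all genes tested were above 0. Of the 24 HOX genes that passed the filter on low values, 16 were higher at an adjusted p of limma under 0.05 and 0 lower, where 15.2% of the 17218 genes tested were higher and 24.1% lower. The filter favours genes that are high with feeders, since HOXB6, HOXB8, HOXC10, HOXC12 and HOXD11 would not have passed it on their feeder-free arrays, and the count of 16 is given as a description. With no filter, and all 28 genes tested among 19775, 17 were higher and 0 lower, where 15% of genes were higher and 20.7% lower. The median difference over all genes tested was -0.19 with the filter and -0.04 without it. For the 3220 tested genes with a mean over the 12 arrays below 6 it was 0.42. The arrays cannot tell fewer cells of a type from less RNA per cell, nor mouse feeder RNA from human RNA. Of the 6772 genes called in all, 38.7% were higher, and after a further quantile normalization 50.6% of 3133 were, with 9 HOX genes called higher. Of the genes whose mean over the 12 arrays lay below 6, where 9 HOX genes lie, 31.2% were called higher, and 6 of those 9 were. The HOX genes that passed the filter only through feeder-supported arrays are all among those 9, and this count too is given as a description.

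HOXC6, a gene of trunk and limb patterning, carried the largest difference. Its log2 level with feeders was 11.71 in H1, 12.49 in H9 and 12.89 in HSF1, and without feeders it was 5.70, 5.78 and 5.42 in the same order. The difference of 6.73 (SE 0.43, adjusted p = 7.9e-06) was made of 6.01, 6.71 and 7.46 in the 3 lines. The groups did not overlap, and the gap between them was larger than the range within either. Of all genes tested, 21.7% were higher with feeders without overlap in this comparison.

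HOXB6, HOXB7 and HOXB8 are neighbours in the HOXB cluster that pattern the trunk. HOXB6 stood at 6.90 in H1, 7.51 in H9 and 7.36 in HSF1 with feeders and at 4.37, 4.22 and 4.08 without, a difference of 3.04 (SE 0.23, adjusted p = 3.45e-05). HOXB8 stood at 5.53, 6.02 and 6.63 with feeders and at 4.05, 3.89 and 3.60 without, a difference of 2.21 (SE 0.26, adjusted p = 5.68e-04). HOXB7 stood at 6.81, 7.14 and 8.13 with feeders and at 5.80, 6.32 and 5.99 without, a difference of 1.33 (SE 0.28, adjusted p = 0.0091). All 3 genes were higher with feeders in every line with no overlap, where 21.7% of all genes tested were higher without overlap. For HOXB8 and HOXB7 the HSF1 array gave the highest feeder-supported level, whereas for HOXB6 it was the H9 array.

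In the HOXC cluster, HOXC4 and HOXC8 rose beside HOXC6. HOXC4, which is expressed from the neck backwards, stood at 7.23 in H1, 7.64 in H9 and 8.51 in HSF1 with feeders and at 5.94, 5.84 and 5.98 without, a difference of 1.88 (SE 0.26, adjusted p = 0.0014). HOXC8, a thoracic gene, stood at 6.90, 7.71 and 7.74 with feeders and at 5.81, 5.90 and 6.15 without, a difference of 1.50 (SE 0.22, adjusted p = 0.0019). HOXC5, which lies between HOXC4 and HOXC6, differed by only 0.62 (SE 0.18, adjusted p = 0.024), with levels of 7.16 to 7.27 without feeders and 7.65 to 8.15 with them. In the HOXD cluster HOXD10, a gene of limb and lumbosacral patterning, stood at 6.56, 7.18 and 7.83 with feeders and at 5.12, 5.10 and 5.22 without, a difference of 2.04 (SE 0.28, adjusted p = 0.0013). In each of these 4 genes the lowest feeder-supported array was above the highest feeder-free array, as in 21.7% of all genes tested.

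**Figure D1:**
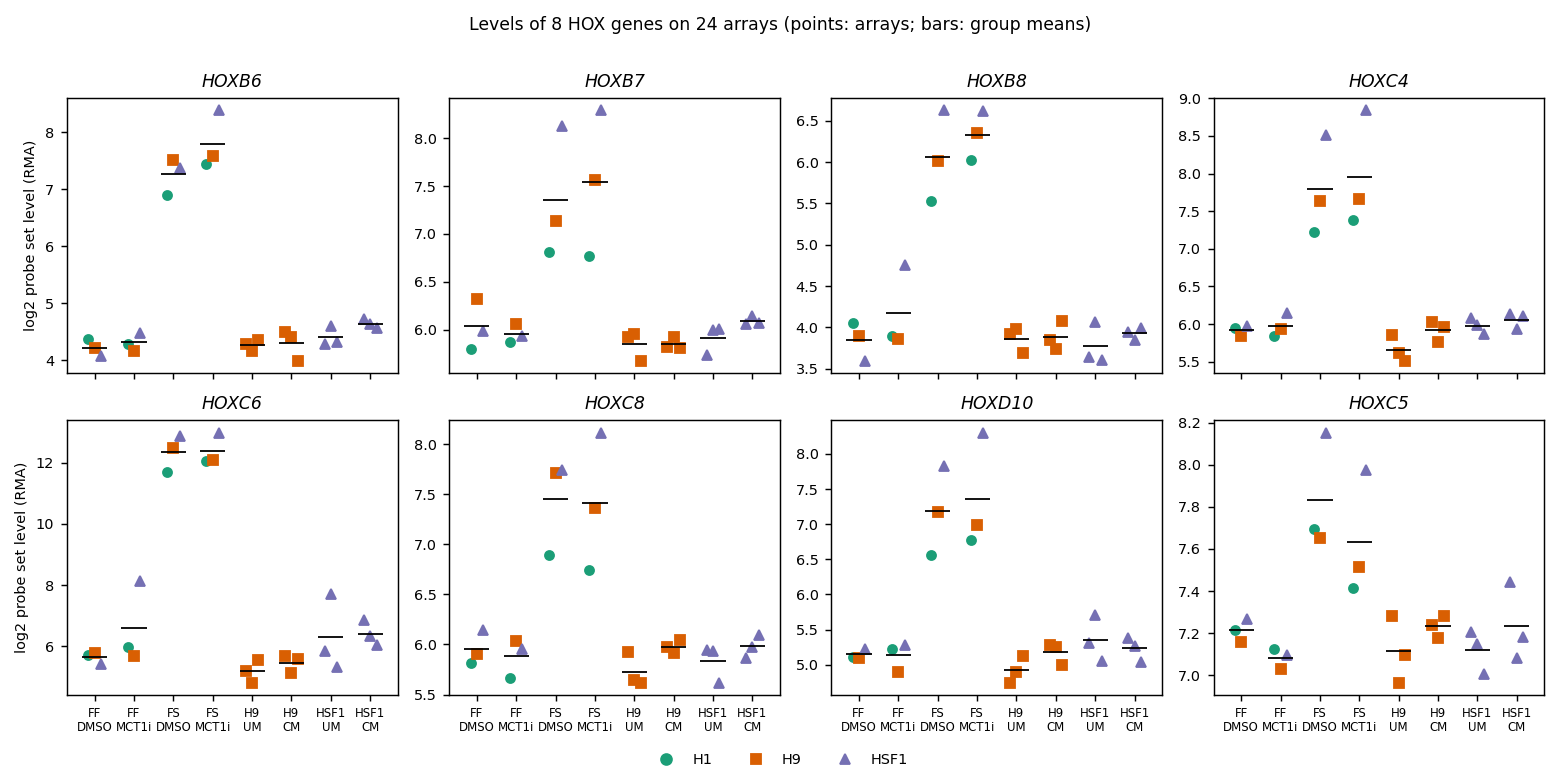
Log2 probe set level of 8 HOX genes on the 24 arrays by group (FF feeder-free, FS feeder-supported, MCT1i the inhibitor AZD3965, UM unconditioned and CM conditioned medium), with a point for each array and a bar for each group mean. The 6 feeder-supported arrays stand above all 18 feeder-free arrays in every panel but that of HOXC5, whose lowest feeder-supported level of 7.41 lies under a feeder-free one of 7.44.

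The pattern by position was described with 3 classes of paralog number. Numbers 4 to 8 held 11 members with a median difference of 1.33 on the log2 scale, against 0.43 for the 5 members of numbers 1 to 3 and 0.56 for the 12 members of numbers 9 to 13. The classes overlapped, with differences of 0.29 to 6.73, 0.06 to 0.74 and 0.31 to 2.04 in the same order. These medians and ranges rest on the probe set that represents each gene. The other HOXB3 set differed by 1.96, above the range of numbers 1 to 3. In numbers 4 to 8 the other HOXB6 and HOXB8 sets differed by 0.30 and 0.86, less than the sets that represent these genes. At the anterior end HOXB1, the hindbrain gene, differed by 0.34 (SE 0.23) and HOXD1 by 0.06 (SE 0.20), and neither passed the threshold. Their levels overlapped between the culture systems. At the posterior end HOXC13 differed by 0.31 (SE 0.24) and HOXB13 by 0.62 (SE 0.31) without passing, and HOXD13 by 0.55 (SE 0.20, adjusted p = 0.046). HOXA2, the only HOXA gene measured and below the filter, stood at 3.61 to 4.28 with feeders and at 3.09 to 3.22 without. By cluster, 7 of 10 HOXB genes were called higher, 5 of the 8 HOXC genes tested and 4 of the 6 HOXD genes tested. Differences between the classes or the clusters were not tested.

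**Figure D2:**
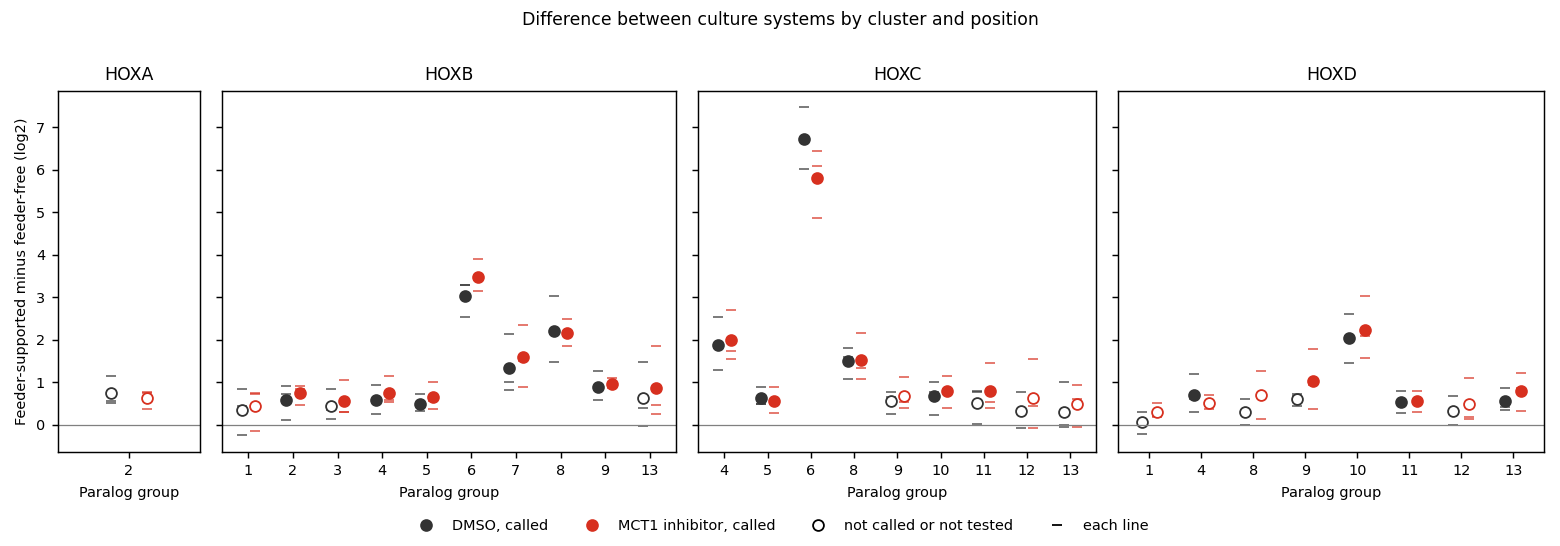
Difference in log2 level between feeder-supported and feeder-free cells for each HOX gene by cluster and paralog number, with DMSO (dark) and with the inhibitor (red); circles are means over 3 lines, filled where limma's adjusted p was under 0.05, and dashes are the single lines. The largest differences lie at numbers 4 to 8 in HOXB and HOXC, led by HOXC6 at 6.73, and at number 10 in HOXD, at 2.04.

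With the inhibitor present in both culture systems, the same comparison was made on the other 6 arrays of these lines. There 19 of the 24 HOX genes tested were higher and 0 lower, where 19.3% of genes were higher and 27.8% lower. With no filter 22 of 28 were higher and 0 lower, where 19.4% of genes were higher and 24% lower. The median difference was 0.75 over the 28 genes and -0.20 over all genes tested. For the 3220 tested genes with a mean over the 12 arrays below 6 it was 0.45. Of these low genes 40.4% were called higher, and 5 of the 9 HOX genes among them were. HOXC6 stood at 12.05 in H1, 12.09 in H9 and 12.99 in HSF1 with feeders and at 5.96, 5.66 and 8.13 without, a difference of 5.79 (SE 0.43, adjusted p = 2.25e-05). The feeder-free HSF1 array stood well above the other feeder-free arrays of this comparison for that gene. HOXB6 differed by 3.48 (SE 0.23), HOXD10 by 2.23 (SE 0.28), HOXB8 by 2.16 (SE 0.26), HOXC4 by 1.99 (SE 0.26), HOXB7 by 1.59 (SE 0.28) and HOXC8 by 1.52 (SE 0.22), each with an adjusted p of at most 0.0038 and in 3 of 3 lines. HOXD9, a gene of the limb, passed here at 1.04 (SE 0.24, adjusted p = 0.011) and not with DMSO, at 0.61 (SE 0.24, adjusted p = 0.062), and the reverse held for HOXD4, at 0.51 (adjusted p = 0.068) against 0.70 (adjusted p = 0.028). The change between both comparisons was itself not called for either gene, at 0.43 (SE 0.35) for HOXD9 and -0.20 (SE 0.31) for HOXD4, each with an adjusted p of 1.

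Of the genes called higher, 15 were shared, out of 16 with DMSO and 19 with the inhibitor. At a size of at least 1 on the log2 scale, 7 HOX genes were called higher with DMSO, where 1.92% of genes tested were, and 8 with the inhibitor, where 2.5% were. The 7 are the genes given array by array above, and the eighth is HOXD9. Set against all 18 feeder-free arrays, those of the medium groups included, all 6 feeder-supported arrays were higher for 11 of the 28 genes, where 8.35% of the genes tested showed this. These 11 were HOXA2, HOXB6, HOXB7, HOXB8, HOXB9, HOXC4, HOXC6, HOXC8, HOXC10, HOXD9 and HOXD10. The share covers only genes past the filter, whereas the 28 include 4 that did not pass it, HOXA2 among them. HOXB6, HOXB8 and HOXC10 passed it only through feeder-supported arrays. The gap between the lowest feeder-supported and the highest feeder-free array was 3.57 for HOXC6, 2.18 for HOXB6 and 1.08 for HOXC4, and it was 0.02 for HOXC10. The 12 arrays of the medium groups hold feeder-free cells alone, so that any difference in how they were run cannot be told apart from the culture system in this wider comparison.

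HOXB6, HOXB8, HOXC4, HOXC6 and HOXD10 were called higher under each of the 15 alternative settings, in both culture comparisons. Of these, HOXB6 and HOXB8 passed the filter only through their feeder-supported arrays, and both were also called with no filter. The count of called genes was less steady. Without the cell line as a block it was 8 with DMSO and 12 with the inhibitor. With DMSO it was 7 without the H1 arrays, 5 without the H9 arrays and 10 without the HSF1 arrays, and with the inhibitor it was 7 without H1, 10 without H9, 15 without HSF1, and 9 without the feeder-free HSF1 array alone. Without both feeder-supported HSF1 arrays, the ones that stood apart, it was 14 with DMSO and 17 with the inhibitor. The difference between the 3′ and 5′ ACTB control probe sets, which grows as RNA is degraded, lay at -0.31 to 1.19 on the feeder-supported arrays and at 0.47 to 1.17 on the 6 feeder-free arrays compared with them, lowest on the feeder-supported HSF1 arrays. With it as a covariate the count was 5 with DMSO and 6 with the inhibitor.

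HOX genes with several probe sets showed one direction on all of them, with unequal sizes. The raw difference of all 44 probe sets was above 0 in both comparisons. At the level of genes, 42.5% of all tested were above 0 with DMSO and 42.7% with the inhibitor. Of the 34 HOX probe sets that passed the filter, 23 were called higher with DMSO, where 15% of probe sets were. With the inhibitor 27 were, where 19.3% of probe sets were. The filter favours sets that are high with feeders here too, and both counts are given as a description. Besides the genes named above for this, the other sets of HOXB3, HOXB5, HOXB7, HOXB9 and HOXD4 passed it only through feeder-supported arrays. So did a second HOXD10 set. HOXB3, a hindbrain and neck gene, differed by 0.43 (adjusted p = 0.10) with DMSO on the probe set that represents it and by 1.96 (SE 0.31, adjusted p = 0.0027) on its other one. That other set read 5.56, 6.13 and 6.57 with feeders and 4.24, 4.24 and 3.89 without. The other HOXB6 probe set, which lay under the filter, differed by 0.30 where the representing set gave 3.04, and the other HOXB8 set by 0.86 where that set gave 2.21. For HOXD10 the 3 sets gave 2.04, 1.17 and 0.41, and for HOXB7 they gave 1.33, 2.06 and 1.51. The HOXB7 set that represents the gene is of the kind whose probes may also match other transcripts. HOXC6, HOXC4 and HOXC8 have 1 probe set each, so that no other set bears on their values.

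Genes known to act with or on HOX genes were described from hand-written lists, whose counts stand beside 15.2% higher and 24.1% lower of all genes tested with DMSO and 19.3% and 27.8% with the inhibitor. Of the 8 TALE homeodomain cofactors tested, which bind DNA together with HOX proteins, 2 were higher with feeders and DMSO and 1 lower, with a median difference of 0.18, and the counts were the same with the inhibitor, with a median of 0.33. MEIS1 rose by 3.30 (SE 0.16, adjusted p = 1.82e-06), with 7.41 to 8.12 on the feeder-supported and 4.02 to 4.69 on all feeder-free arrays. MEIS2 rose by 1.92 (SE 0.23, adjusted p = 6.16e-04), and PKNOX1 fell by 0.76 (SE 0.25, adjusted p = 0.036). MEIS1 thus separated the culture systems in every line, as HOXC6 did, but it passed the filter only through its feeder-supported arrays. The filter favours genes that are high with feeders in all these lists, and their counts are given as a description.

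Upstream regulators of the clusters include retinoic acid, WNT and FGF pathway genes. Of 14 tested, 4 were higher and 2 lower with DMSO, with a median of 0.51, and 7 were higher and 1 lower with the inhibitor, with a median of 0.52. Of all genes tested 15.2% were higher and 24.1% lower with DMSO, and 19.3% and 27.8% with the inhibitor. CYP26A1, the retinoic acid-degrading enzyme that retinoic acid itself induces, rose by 3.26 (SE 0.43, adjusted p = 0.0012) with DMSO and by 4.28 (SE 0.43, adjusted p = 1.78e-04) with the inhibitor. RARB, a retinoic acid receptor and itself a retinoic acid target, rose by 0.86 and 1.07 (adjusted p = 0.0053 and 0.0016). NR6A1, an orphan nuclear receptor of early embryos, fell by 1.38 and 1.51 (adjusted p = 0.0023 and 0.0012).

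The chromatin regulators are described in 2 lists, beside 15.2% higher and 24.1% lower of all genes tested with DMSO and 19.3% and 27.8% with the inhibitor. Of 19 Polycomb subunits, which silence HOX clusters, 0 were higher and 6 lower with DMSO, with a median of -0.53, and 1 was higher and 9 lower with the inhibitor, with a median of -0.62. The subunits CBX2, EZH2 and PHC1 fell by 1.35, 0.98 and 0.75 with DMSO (adjusted p = 0.006, 0.013 and 0.0099). Of 11 Trithorax proteins and H3K27 demethylases, which oppose that silencing, 1 was higher and 4 lower with DMSO, with a median of -0.44, and 1 was higher and 5 lower with the inhibitor, with a median of -0.45. The demethylase KDM6B rose by 1.11 (SE 0.21, adjusted p = 0.0063), while MEN1 and PSIP1, which tether the MLL complex to chromatin, fell by 1.27 and 0.72 (adjusted p = 0.0066 and 0.0045). The median of all genes tested was -0.19 with DMSO and -0.20 with the inhibitor.

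Other transcripts of the clusters and their neighbours were counted beside the same shares of all genes, 15.2% higher and 24.1% lower with DMSO and 19.3% and 27.8% with the inhibitor. Of 10 noncoding RNAs of the clusters tested, 4 were higher and 0 lower with DMSO and 8 were higher and 0 lower with the inhibitor, with medians of 0.56 and 0.63. HOXA11-AS, HOXB-AS1 and HOXC-AS3 rose by 0.78, 0.72 and 0.67 with DMSO (adjusted p = 0.0078, 0.032 and 0.037). HOXA11-AS lies in the HOXA cluster, whose coding genes are here represented by HOXA2 alone. Whether the labelling kept the strand is not given in the sources used here, and without strand an antisense RNA and the gene it overlaps cannot be told apart. Of 8 related homeobox genes, 4 were higher and 0 lower in each comparison, with medians of 0.53 and 0.58, led by MNX1 and GSX1 at 1.09 and 1.06 with DMSO. Of 18 genes flanking the clusters, 1 was higher and 2 lower with DMSO and 1 was higher and 7 lower with the inhibitor, with medians of -0.43 and -0.57. HNRNPA1 and CBX5, which flank HOXC, fell by 0.54 and 1.16 with DMSO, and SKAP1, which flanks HOXB, rose by 0.57 (adjusted p = 0.021, 0.0091 and 0.0335).

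Levels of fibroblast markers also moved with the culture system, and their part in the HOX differences was not tested. Of the 31 markers, 12 were higher and 0 lower with feeders and DMSO, with a median of 0.26, where 15.2% of all genes tested were higher and 24.1% lower. With the inhibitor 9 were higher and 4 lower, with a median of 0.28, where 19.3% and 27.8% were. CDH11 rose by 4.70 and TWIST1 by 3.74 with DMSO (SE 0.38 and 0.40), and no marker is at 0 on the RMA scale. With feeders and DMSO the mean of the markers was 8.67 in H1, 8.29 in H9 and 8.01 in HSF1, and the mean of the 28 HOX genes was 6.25, 6.46 and 6.88. The distributions of these arrays also differed, with medians over all probe sets of 6.17, 6.22 and 6.34 in the same order. Their interquartile ranges were 2.85, 2.66 and 2.45. The part of this in the order of the lines was not tested. Without feeders and with DMSO the marker mean was 7.91, 7.18 and 7.38, and HOXC6 read 5.70, 5.78 and 5.42. Without feeders and with the inhibitor the marker mean was 7.93, 7.42 and 8.08, and HOXC6 read 5.96, 5.66 and 8.13. The feeder-free HSF1 array with the inhibitor had both the highest marker mean and the highest HOXC6 level of the 18 feeder-free arrays.

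**Figure D3:**
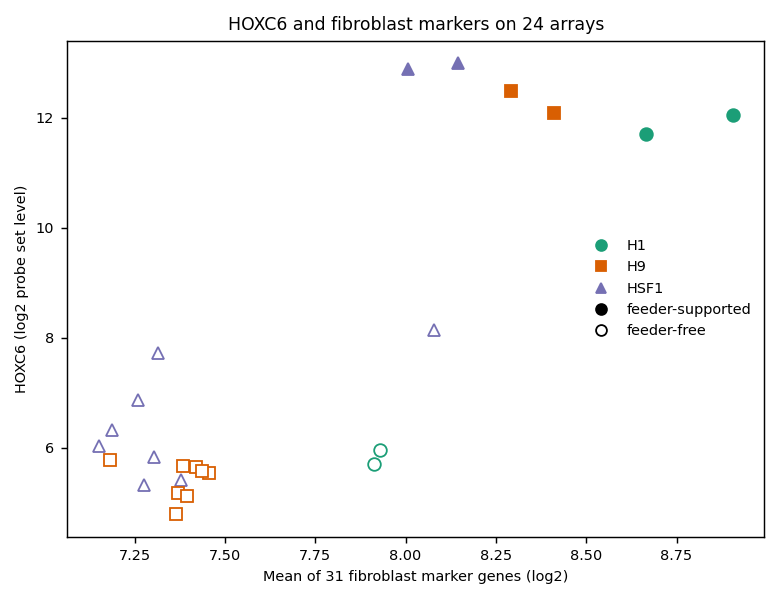
Log2 level of HOXC6 against the mean log2 level of 31 fibroblast marker genes, with a point for each of the 24 arrays, filled for feeder-supported and open for feeder-free cells, by line. The 6 feeder-supported arrays lie at HOXC6 levels of 11.71 to 12.99 and the 18 feeder-free arrays at 4.80 to 8.13.

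Markers of other cell types were counted beside 15.2% higher and 24.1% lower of all genes tested with DMSO and 19.3% and 27.8% with the inhibitor. Of 10 pluripotency markers, 0 were higher and 4 lower with feeders and DMSO, with a median of -0.40, and 0 were higher and 6 lower with the inhibitor, with a median of -0.44. SOX2 fell by 0.53 and 0.76 (adjusted p = 0.0175 and 0.0043), whereas NANOG differed by 0.14 and -0.10 (adjusted p = 0.46 and 0.60). Of 6 mesoderm and primitive streak markers, 2 were higher with DMSO and 4 with the inhibitor, with 0 lower in either and medians of 0.76 and 1.21. EOMES and MIXL1 rose by 2.64 and 1.16 with DMSO (adjusted p = 0.018 and 0.034). Of 7 anterior neural markers, 4 were higher and 1 lower with DMSO and 2 higher and 0 lower with the inhibitor, with medians of 0.59 and 0.64. The part of these cell types in the HOX differences was not tested either.

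The inhibitor comparison asked how blocking MCT1, and with it lactate export, changes gene expression. No HOX gene passed the threshold. In feeder-supported cells 0 of 24 were called, with a median difference of 0.12 over the 28 genes, where 0.00581% of genes were called higher and 0% lower, and at an unadjusted p under 0.05 limma gave 1 HOX gene and 286 genes in all. That 1 was HOXB6, with differences of 0.54 in H1, 0.06 in H9 and 1.01 in HSF1, a mean of 0.54 (SE 0.23, adjusted p = 1.0). In feeder-free cells 0 of 24 were called, with a median of -0.03, where 0.604% of genes were called higher and 0.238% lower, and 1 HOX gene and 1333 genes in all had an unadjusted p under 0.05. That 1 was HOXC6, at 0.95 (SE 0.43, adjusted p = 0.63). The groups did not overlap for HOXB4 and HOXC5, at -0.09 and -0.13, where 10.2% of genes were lower without overlap.

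The HOXC6 value rested on 1 array. The difference was 0.26 in H1, -0.13 in H9 and 2.71 in HSF1, where the array with the inhibitor read 8.13 and that with DMSO 5.42. On that HSF1 array HOXB8 was 1.16 and HOXD4 0.99 above the DMSO array, and the second HOXB3 probe set read 5.51 against 3.89. Its fibroblast marker mean was 8.08, against 7.38 with DMSO, and CDH11 read 8.51 against 6.82. HOXC4, at 6.15 and 5.98, and HOXD10, at 5.27 and 5.22, were close on these 2 arrays. The part of fibroblast RNA in these values was not tested. Without that array the HOXC6 difference was 0.33 (adjusted p = 1).

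Whether the inhibitor acted differently with and without feeders was tested as an interaction, and 0 of 24 HOX genes passed, where 0% of genes were called higher and 0.0174% lower. At an unadjusted p under 0.05 limma gave 0 HOX genes and 357 genes in all. The HOXC6 interaction was -0.94 (SE 0.61, adjusted p = 1), made of 0.08 in H1, -0.28 in H9 and -2.61 in HSF1. For HOXB6 it was 0.45 (SE 0.33, adjusted p = 1) and above 0 in 3 of 3 lines.

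Few genes of the lists described above changed with the inhibitor. With feeders 0 genes of the 11 lists were called. Without feeders DHRS3, a retinaldehyde reductase among the upstream regulators, fell by 1.23 (SE 0.20, adjusted p = 0.016), FBLN2 of the fibroblast markers rose by 1.16 (SE 0.17, adjusted p = 0.0094), and the anterior neural markers HESX1 and OTX2 fell by 1.54 and 2.15 (adjusted p = 0.0031 and 0.0142). HOX cofactors, Polycomb subunits and cluster noncoding RNAs had 0 calls there.

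The medium comparison asked whether factors that MEFs secrete act on feeder-free cells. It gave no HOX call in either line. In H9 cells 0 of 21 HOX genes tested were called, where 3.45% of genes were higher and 13% lower, and in HSF1 cells 0 of 21, where 8.57% were higher and 9.78% lower. At an unadjusted p under 0.05 limma gave 4 HOX genes in H9, out of 5353 genes, and 1 in HSF1, out of 5122. The raw difference was above 0 for 25 of the 28 genes in H9 and 24 in HSF1, with medians of 0.16 and 0.10, where 45.2% and 56.4% of all genes tested were above 0. These shares cover only genes past the filter, whereas the 28 include genes that did not pass it. The median over all genes tested was -0.03 in H9 and 0.03 in HSF1. For the 3099 tested genes with a mean over the medium arrays below 6 it was 0.096 and 0.073. Of the 21 HOX genes tested, 14 are among these low genes.

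HOXC6 differed by less than the spread between replicates. In H9 it read 5.17, 4.80 and 5.54 in unconditioned and 5.67, 5.12 and 5.58 in conditioned medium, a difference of 0.29 (SE 0.41, adjusted p = 0.65). In HSF1 it read 5.83, 7.72 and 5.32 in unconditioned and 6.86, 6.32 and 6.04 in conditioned medium, a difference of 0.11 (SE 0.41, adjusted p = 0.88). The conditioned and unconditioned arrays overlapped in both lines, and the second unconditioned HSF1 array was the highest of the 12. Without it the HSF1 difference was 0.83 (adjusted p = 0.039), which passed the threshold.

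Among the 4 genes of the unadjusted count in H9, HOXC11 differed by 0.22 (SE 0.09, adjusted p = 0.091), HOXC4 by 0.26 (SE 0.11, adjusted p = 0.12), HOXC8 by 0.25 (SE 0.11, adjusted p = 0.14) and HOXB1 by 0.20 (SE 0.10, adjusted p = 0.15). In HSF1 the gene was HOXD1, at 0.29 (SE 0.13, adjusted p = 0.145). The groups did not overlap for 4 tested HOX genes in each line, all higher in conditioned medium, where 9.74% of genes were in H9 and 22.3% in HSF1. Beside these values, the ACTB 3′ to 5′ difference was 3.25 and 2.89 on unconditioned H9 arrays 2 and 3 and 1.07 on array 1. On the 3 conditioned H9 arrays it was 1.84, 1.42 and 1.61. With it as a covariate the H9 count stayed at 0, and HOXD1 passed in HSF1. Without the first unconditioned H9 array HOXC4, HOXC8 and HOXC11 passed the threshold.

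**Figure D4:**
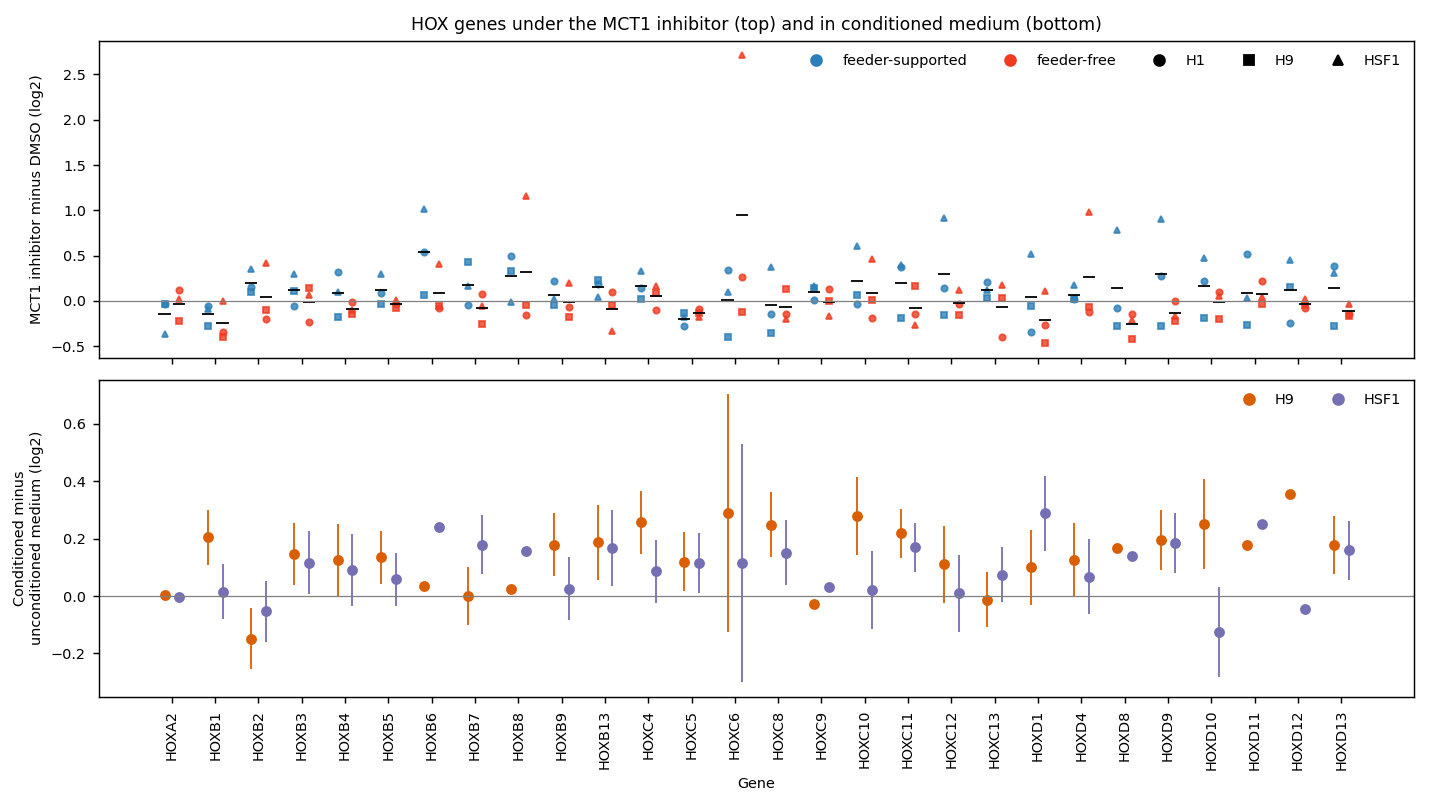
Top, difference in log2 level between the inhibitor and DMSO for each HOX gene, with a point for each line and culture system and a bar for the mean of 3 lines; bottom, difference between conditioned and unconditioned medium in H9 and HSF1, with limma's SE as bars where the gene was tested. The values lie near 0 except for single points such as HOXC6 in feeder-free HSF1 cells, at 2.71.

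A difference in the effect of the medium between the lines was called for 0 of 21 HOX genes, where it was called for 5.65% of genes with the HSF1 effect higher and 2.08% with it lower. At an unadjusted p under 0.05 limma gave 0 HOX genes out of 3994 genes. Some regulators changed. In HSF1 cells CYP26A1 rose by 1.86 (SE 0.14, adjusted p = 1.335e-07), and its effect differed from that in H9 by 1.90 (SE 0.20, adjusted p = 8.32e-05). The other changes there held MEIS2, with a rise of 0.60 (SE 0.15, adjusted p = 0.0115), and NR6A1, which fell by 0.73 (SE 0.16, adjusted p = 0.0045). In all, 3 of 14 upstream regulators were higher and 2 lower, and 4 of 7 cofactors higher and 0 lower. In H9 cells 2 upstream regulators were higher, with FGF8 at 0.59 (SE 0.12, adjusted p = 0.003), and 0 lower. Of the cluster noncoding RNAs HOXB-AS1 rose by 0.58 (SE 0.15, adjusted p = 0.014) in H9. Fibroblast markers were split, with 6 higher and 7 lower of 27 tested in H9 and 2 higher and 6 lower in HSF1.

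Between the lines in unconditioned medium, HOXC4 was higher in HSF1 than in H9, and it was the 1 HOX gene of 21 called, where 10.2% of genes were higher and 13.4% lower. It read 6.08, 5.98 and 5.86 in HSF1 and 5.86, 5.61 and 5.51 in H9, a difference of 0.31 (SE 0.11, adjusted p = 0.0496). The lowest HSF1 array and the highest H9 array both read 5.86. HOXC6 differed by 1.12 (SE 0.41, adjusted p = 0.061) and HOXD10 by 0.43 (SE 0.16, adjusted p = 0.057), and their groups overlapped. The HOXC4 call was lost when any single one of the 6 arrays but the first H9 array was left out, with values of 0.24 to 0.37, and with the ACTB difference as a covariate, at 0.21. With 1 line on each side, p-values here measure the spread between replicates of a line and not between lines.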

How the data were processed

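The 24 arrays were deposited as log2 values of 54675 probe sets, made by the authors with RMA per the submitters' processing notes, whose version, and whether all arrays were processed together, is not given in the sources used here. RMA removes background and aims at a common distribution of arrays, and its values near the bottom of the scale say little about absence. The deposited arrays still differed, with medians of 6.09 to 6.35 and interquartile ranges of 2.45 to 3.30. Of the probe sets, 41097 carry 1 symbol, 1801 several and 11777 none. The number of arrays limits the precision.

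Tested genes reached a log2 level above 5 on 3 or more arrays among the 12 with the inhibitor or the 12 with the media (17218 and 16572 genes). The test was limma 3.58.1 in R 4.3.3 (lmFit, eBayes with an intensity trend), with Benjamini-Hochberg adjustment over all tested genes and a threshold of 0.05. The inhibitor arrays were fitted with the cell line as a block, since the same number there marks the same line. The medium arrays had no block: deviations of samples with the same number correlated between -0.27 and 0.13. Whether the biological replicates came from separate cultures is not given, so that p-values there measure the spread between these samples, which may be technical. Each of these fits was also run on simulated data, for the culture comparison with DMSO and for the medium in H9. The simulated noise was independent and held no array that stood apart, and the outcome is not reported here.

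Full statistics are given for up to 8 called HOX genes per comparison with the smallest p that moved one way in every line, and for up to 3 called genes per list. The HOX members, the lists and the tests were chosen with earlier results of these data known. Alternatives were other scalings, filters, probe set rules, fits and arrays.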

Additional observations from a re-analysis of the deposited data

How the results depend on the processing

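HOXB6, HOXB8, HOXC4, HOXC6 and HOXD10 kept their direction and stayed past the threshold under all 15 alternatives of both culture comparisons. Where the filter was used, HOXB6 and HOXB8 passed it only through their feeder-supported arrays. The counts of called HOX genes moved, and for the values that follow the cause was not tested. The count with DMSO (16) was 9 after a further quantile normalization, 5 with the ACTB covariate and 8 with no replicate block, and 5 to 16 with 1 line or array left out. The count with the inhibitor (19) was 6 with the ACTB covariate, 12 with no replicate block, 9 without the feeder-free HSF1 array with the inhibitor (chosen after seeing the data), and 7 to 15 with 1 line left out. The quantile setting moved the median of all genes with DMSO from -0.19 to 0.04 and that of the tested HOX genes from 0.61 to 0.74. Array weights gave 1 call for the inhibitor with feeders (HOXC8), 1 for the medium in H9 (HOXC11) and 2 between the lines (HOXB9 and HOXC4). The count for the medium was 0 to 3 in H9 with 1 array left out, the highest without the first unconditioned array. In HSF1 it was 0 to 1, the highest without the second unconditioned array, and 1 with the ACTB covariate. The count between lines (1) was 0 with no filter, with the ACTB covariate and with only the 6 arrays compared, and 0 to 3 with 1 array left out, the highest without the third HSF1 array. In the medium groups, where the numbers do not pair the samples, the replicate block left the counts at 0, 0, 0 and 1.

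HOXC6 changed sign where it was not called. Its difference with the inhibitor and feeders (0.01) was -0.0043 after quantile normalization, -0.42 with array weights, -0.15 without H1, 0.22 without H9, and -0.031 both without HSF1 and with its feeder-supported arrays alone left out. Its medium difference in HSF1 (0.11) was -0.11 without the first conditioned or the first unconditioned array and -0.37 without the third unconditioned one, and up to 0.83 without the second. Its medium by line interaction (-0.17) was 0.0094 without the third conditioned HSF1 array, 0.54 without the second unconditioned HSF1 array and 0.01 without the second unconditioned H9 array, and as low as -0.66 without the third unconditioned HSF1 array.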
